A study of Mus musculus with 4 samples.

Results

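Self-renewal regulators of hematopoietic stem cells (HSCs) were examined in RNA sequencing of HSCs sorted from mouse bone marrow. The 7 genes were Mecom, Prdm16, Hlf, Mllt3, Tcf15, Nkx2-3 and Etv6, taken by symbol from the 23450 genes listed for each library. All 7 were found, and all 7 passed the filter on low values. Long-term HSCs (LT-HSC, 2 libraries) had been gated as CD48 negative, CD150 positive, CD34 negative and CD9 high, and short-term HSCs (ST-HSC, 2 libraries) as CD48 negative, CD150 positive and CD9 low, with no CD34 gate given. CD9 is a tetraspanin, a small membrane protein, and CD150 and CD48 belong to the SLAM receptors that divide stem cells from progenitors. Each library was made from 2000 cells. The strain, genotype, age and sex of the mice, any pooling of animals and any treatment were not stated in the labels. Whether a group's libraries stem from different mice was not stated either, so the p-values below speak only for the spread among these 4 libraries, which may be technical.

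HSCs give rise to all blood cells and keep their own number by self-renewal, a division in which a daughter cell remains a stem cell. A small set of transcription and chromatin regulators is needed for this in mice. Mecom and Prdm16 encode related zinc finger proteins of the PRDM family, and loss of either depletes mouse HSCs. Hlf encodes a bZIP activator of the PAR subfamily that marks HSCs and restrains their cycling. Mllt3 (AF9) encodes a chromatin reader of acylated histones that joins the elongation machinery and Dot1l, and Etv6 (TEL) encodes an ETS family repressor needed for adult HSCs in bone marrow. Tcf15 encodes a bHLH factor best known from mesoderm of the embryo and linked to HSC quiescence in mice, and Nkx2-3 encodes a homeodomain factor best known from spleen and gut.

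Values are CPM (reads scaled to a fixed library total), and fold changes are differences of log2(CPM + 1), LT-HSC minus ST-HSC. For 5 of the 7 genes, namely Mecom, Hlf, Mllt3, Nkx2-3 and Tcf15, each LT-HSC library was higher than each ST-HSC library (called above here), where 16.1% of the 12569 tested genes were above. Of the 7 genes, 0 were below in the same sense, against 17.5% of tested genes. Prdm16 and Etv6 overlapped between the groups. The median log2 fold change was 0.56 over the 7 genes and -0.01 over all tested genes. The genes were chosen for report with earlier results of these data known, so these counts describe them and are no test. Tested across all genes, limma called 0 genes higher (0%) and 0 genes lower (0%) at the adjusted threshold of 0.05, with 361 higher (2.87%) and 453 lower (3.6%) at an unadjusted p under 0.05 (limma-voom gave 0 calls, and 279 higher and 306 lower unadjusted). Of the 7 genes, 2 were among the 361, Mecom and Mllt3. In bulk libraries, fewer cells carrying a transcript and less RNA per cell cannot be told apart.

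**Figure D1:**
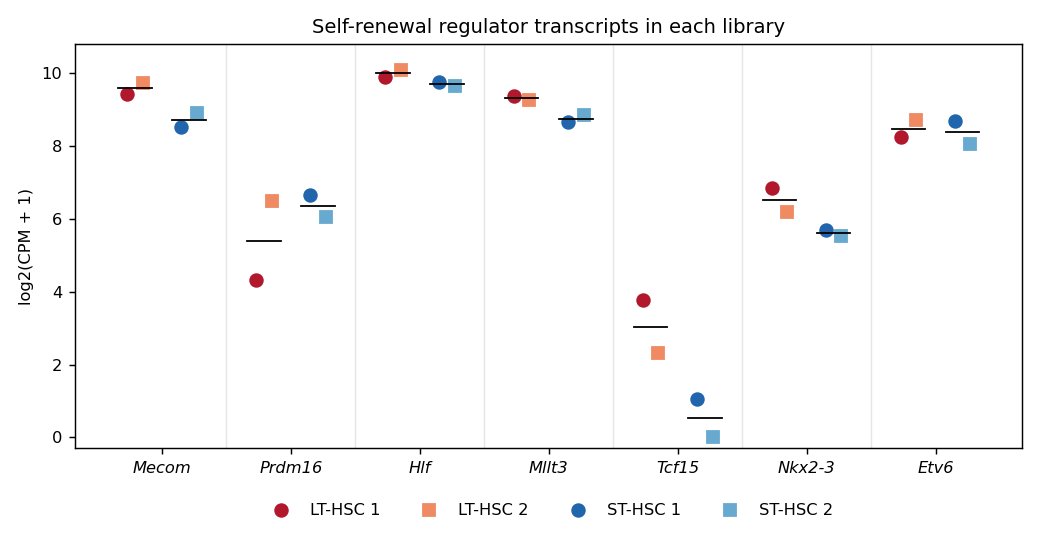
Level of the 7 regulators in each library, as log2(CPM + 1) on the vertical axis, with LT-HSC left of ST-HSC for each gene; points are libraries and bars are group means (n = 2). LT-HSC points lie above all ST-HSC points for Mecom, Hlf, Mllt3, Tcf15 and Nkx2-3, and Prdm16 of LT-HSC 1 lies far below the other 3 libraries.

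The genes that were above in LT-HSC are shown by the DNA before their starts, where a RefSeq start was at hand. The RefSeq starts used here (GRCm38.p6) held 8 for 6 of the 7 genes and none for Tcf15. Mecom has 2 starts there, and the distal start makes the longer Mds1-Evi1 form, which carries the PR domain, while the proximal start makes the Evi1 form without it. The deposited values give a single level per gene symbol, so the forms of Mecom are summed in every value below. Each sequence is the 250 bases before a start, 5′ to 3′ on the gene's strand, with the E-box CANNTG, the motif that bHLH factors such as Tcf15 bind, in capitals.
Mecom distal start, chr3:30509760-30510009 (minus strand): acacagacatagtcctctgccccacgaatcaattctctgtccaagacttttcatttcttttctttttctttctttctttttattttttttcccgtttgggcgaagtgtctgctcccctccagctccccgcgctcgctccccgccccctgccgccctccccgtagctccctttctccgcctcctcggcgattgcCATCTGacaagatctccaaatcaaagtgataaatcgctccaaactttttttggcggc
Mecom proximal start, chr3:30013205-30013454 (minus strand): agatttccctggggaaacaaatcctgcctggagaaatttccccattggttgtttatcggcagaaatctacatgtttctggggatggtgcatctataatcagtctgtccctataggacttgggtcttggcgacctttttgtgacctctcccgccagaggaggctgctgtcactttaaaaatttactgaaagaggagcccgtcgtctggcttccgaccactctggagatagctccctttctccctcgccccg
Hlf, chr11:90390918-90391167 (minus strand): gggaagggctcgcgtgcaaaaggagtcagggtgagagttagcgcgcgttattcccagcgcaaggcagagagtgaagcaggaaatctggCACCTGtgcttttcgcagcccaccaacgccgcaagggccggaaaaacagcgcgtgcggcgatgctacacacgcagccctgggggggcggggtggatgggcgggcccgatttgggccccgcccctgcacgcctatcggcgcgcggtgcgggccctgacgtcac
Mllt3 upstream start, chr4:88033408-88033657 (minus strand): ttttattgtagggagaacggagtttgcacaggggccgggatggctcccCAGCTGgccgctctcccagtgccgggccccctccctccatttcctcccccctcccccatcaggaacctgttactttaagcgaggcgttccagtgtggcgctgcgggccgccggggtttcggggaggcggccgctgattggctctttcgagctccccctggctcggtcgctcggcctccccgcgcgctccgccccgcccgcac
Nkx2-3, chr19:43612075-43612324 (plus strand): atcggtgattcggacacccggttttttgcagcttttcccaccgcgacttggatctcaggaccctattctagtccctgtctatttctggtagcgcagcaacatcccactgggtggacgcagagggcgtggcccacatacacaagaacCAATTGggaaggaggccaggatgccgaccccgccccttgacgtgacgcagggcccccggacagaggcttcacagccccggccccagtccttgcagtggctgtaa

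The E-box was searched on both strands, on which it reads the same. It was found before the distal start of Mecom at position -57, before Hlf at -162, before this start of Mllt3 at -202 and before Nkx2-3 at -104, counted from the first base before the start as -1. The second RefSeq start of Mllt3, not printed, had 3 E-boxes, at -208, -78 and -60. The windows of the proximal Mecom start, Prdm16 and Etv6 held no E-box, and 66.2% of all 32851 RefSeq windows of 250 bases held one. The window of Hlf also held the bZIP motif TGACGTCA at -9, which overlaps no E-box and occurs in 1.55% of windows, and the ETS motif CCGGAA at -125, which occurs in 12.03%. TTANNTAA, which matches the PAR bZIP site, and AGATAA, which ends the site known for Mecom, were in none of the 8 windows (5.43% and 9.99% of all windows). A match is a run of letters and no evidence of binding.

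For Mecom, the zinc finger factor, LT-HSC 1 had 691 CPM and LT-HSC 2 had 844 CPM, against 365 and 479.6 CPM in ST-HSC 1 and 2. The lowest LT-HSC library thus lay above the highest ST-HSC library. LT-HSC averaged 768 ± 108 CPM and ST-HSC averaged 422 ± 80.9 CPM (SD, n = 2 each), a ratio of 1.82. The log2 fold change was 0.87 ± 0.21 (SE), and the limma adjusted p over all genes was 0.716, which did not pass. Between libraries of the same number the difference of log2(CPM + 1) was 0.92 for number 1 and 0.81 for number 2. Mecomos is annotated in GENCODE on the opposite strand of Mecom. Whether the authors' counting used strand is not stated, so reads of Mecom and of its antisense neighbour cannot be told apart.

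Prdm16, the relative of Mecom that also acts in brown fat and in the nervous system, had 18.9 CPM in LT-HSC 1 and 88.6 CPM in LT-HSC 2, against 100.5 and 65.5 CPM in ST-HSC 1 and 2. LT-HSC 1 was the low library, and LT-HSC 2 lay between the ST-HSC libraries. The 2 LT-HSC libraries differed by 2.17 in log2(CPM + 1), which exceeds the same difference of 95.5% of the 7242 tested genes with a mean log2(CPM + 1) of at least 5. The mean of Prdm16 was 5.88, and those genes were not matched to it in level. The ST-HSC libraries differed by 0.61. The log2 fold change was -0.96 ± 0.82 (SE; limma adjusted p = 0.917), and without LT-HSC 1 it was 0.12. The direction of Prdm16 therefore rested on LT-HSC 1. GENCODE places 3 genes on the opposite strand within Prdm16, so the limit on strand holds for it too.

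Hlf, the PAR bZIP activator, had 959 CPM in LT-HSC 1 and 1084 CPM in LT-HSC 2, against 868 and 798 CPM in ST-HSC 1 and 2. The groups did not overlap, and the gap between them was small beside that of Mecom. LT-HSC averaged 1021 ± 88.5 CPM and ST-HSC averaged 833 ± 49.0 CPM (SD, n = 2 each), a ratio of 1.23. Its log2 fold change of 0.29 ± 0.13 (SE) did not pass (limma adjusted p = 0.784). Libraries of a group lay close for Hlf, with differences of log2(CPM + 1) of 0.18 in LT-HSC and 0.12 in ST-HSC, against medians of 0.48 and 0.38 over the 7242 genes. Those genes were not matched in level to Hlf, whose mean log2(CPM + 1) was 9.85.

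Mllt3, the chromatin reader, had 656 CPM in LT-HSC 1 and 615 CPM in LT-HSC 2, against 404 and 459 CPM in ST-HSC 1 and 2. The groups did not overlap, and the LT-HSC libraries differed by 0.09 in log2(CPM + 1), less than any other of the 7 genes. LT-HSC averaged 635 ± 29.2 CPM and ST-HSC averaged 431 ± 38.6 CPM (SD, n = 2 each), a ratio of 1.47. Mllt3 had a log2 fold change of 0.56 ± 0.16 (SE; limma adjusted p = 0.716), and the differences between libraries numbered 1 and numbered 2 were 0.70 and 0.42.

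Nkx2-3, the homeodomain factor, had 114 CPM in LT-HSC 1 and 72.4 CPM in LT-HSC 2, against 51.1 and 44.8 CPM in ST-HSC 1 and 2. LT-HSC 1 was the highest library, and the groups did not overlap. LT-HSC averaged 93.1 ± 29.3 CPM and ST-HSC averaged 48.0 ± 4.45 CPM (SD, n = 2 each), a ratio of 1.94. For Nkx2-3 this gave a log2 fold change of 0.91 ± 0.43 (SE; limma adjusted p = 0.806), and it was 0.59 without LT-HSC 1.

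Tcf15, the bHLH factor, had 165 and 64 reads in LT-HSC 1 and 2, against 16 and 0 reads in ST-HSC 1 and 2. These are 12.6 and 3.96 CPM in LT-HSC, against 1.06 and 0 CPM in ST-HSC, and a count of 0 in ST-HSC 2 allows up to 0.202 CPM (3 reads, counting error only). LT-HSC 1 was the highest library and ST-HSC 2 the lowest, and the groups did not overlap although the libraries of each group lay far apart. The log2 fold change was 2.52 ± 1.12 (SE; limma adjusted p = 0.782). The size depended on the value added before taking the logarithm, at 1.19 with 5 CPM added and 3.11 with 0.5 CPM added, and it was 4.69 on the deposited log2 values and 5.12 with limma-voom. Tcf15 would have passed the filter on low values through the LT-HSC libraries alone.

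Etv6, the ETS repressor, had 303 CPM in LT-HSC 1 and 416 CPM in LT-HSC 2, against 414 and 267 CPM in ST-HSC 1 and 2. Each group had a high and a low library, and the groups overlapped. LT-HSC averaged 359 ± 80.1 CPM and ST-HSC averaged 340.4 ± 104 CPM (SD, n = 2 each). Etv6 had a log2 fold change of 0.09 ± 0.30 (SE; limma adjusted p = 0.9998), and its sign turned without LT-HSC 2 (-0.13) or without ST-HSC 2 (-0.22). GENCODE places 3 genes on the opposite strand within Etv6 as well, with the same limit on strand.

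**Figure D2:**
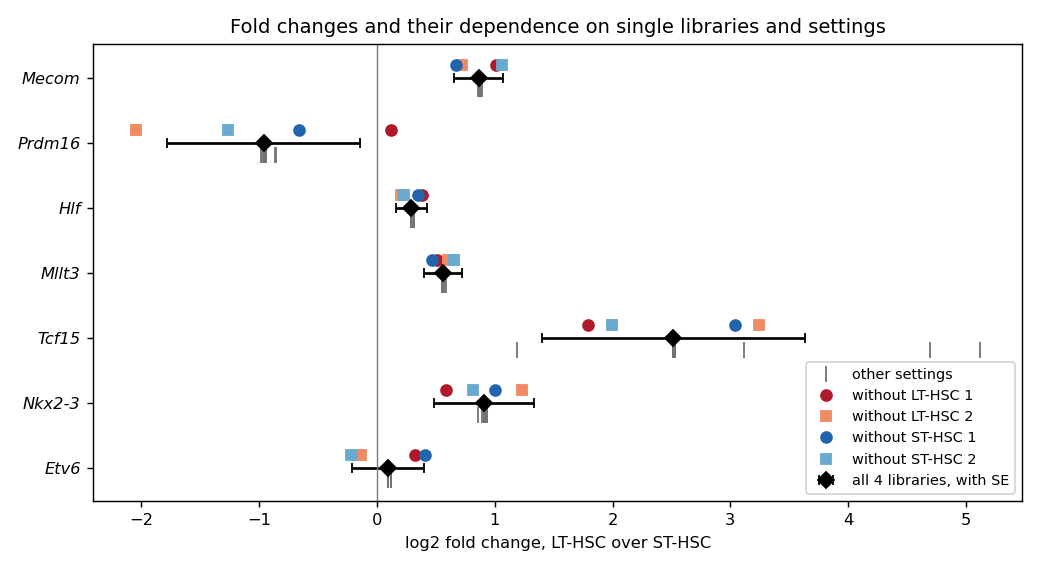
Log2 fold change of each regulator, LT-HSC over ST-HSC, on the horizontal axis: diamonds with SE bars use all 4 libraries, coloured points leave out 1 library each, and grey ticks use another scaling, filter, added value or model. Mecom, Hlf, Mllt3, Nkx2-3 and Tcf15 stay right of 0 in every setting, Prdm16 crosses 0 without LT-HSC 1 (0.12), and Etv6 lies on both sides.

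Levels were set beside each other per length, as CPM per kilobase of the longest coding transcript in GENCODE. On this scale Hlf had the highest level in both groups, at 181 ± 15.7 in LT-HSC and 148 ± 8.68 in ST-HSC. Mecom followed at 135 ± 19.0 in LT-HSC and 74.2 ± 14.2 in ST-HSC, Mllt3 at 105 ± 4.82 in LT-HSC and 71.0 ± 6.37 in ST-HSC, and Etv6 at 63.0 ± 14.0 in LT-HSC and 59.6 ± 18.2 in ST-HSC (SD, n = 2 each). In ST-HSC Mecom and Mllt3 lay within each other's spread, and the ranges of mean ± SD of all 3 genes overlapped. Nkx2-3 was at 44.1 ± 13.9 in LT-HSC and 22.7 ± 2.11 in ST-HSC, Prdm16 at 6.25 ± 5.73 in LT-HSC and 9.65 ± 2.88 in ST-HSC, and Tcf15 at 8.46 ± 6.24 in LT-HSC and 0.543 ± 0.767 in ST-HSC. Prdm16 and Tcf15 lay within each other's spread in LT-HSC. Per kilobase of all annotated exons, Etv6 in LT-HSC (60.1 ± 13.4) lay between Mecom (61.8 ± 8.69) and Mllt3 (52.9 ± 2.44), and in ST-HSC Etv6 (56.9 ± 17.4) lay above both Mllt3 (35.9 ± 3.22) and Mecom (34.0 ± 6.51), so the order of these 3 genes depended on the length used.

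The genes nearest in pattern were found by the distance between the 4 library values of log2(CPM + 1), each centred on its gene's mean, among 6533 named genes with a mean of at least 5 (6534 for Tcf15). With 4 points, near matches are easily found among so many genes. The nearest to Mecom was Rnf125, a ubiquitin ligase gene, with 79.1 and 99.9 CPM in LT-HSC, against 40.7 and 55.1 CPM in ST-HSC (distance 0.050), followed by Ktn1 and Zbtb7a. The nearest to Prdm16 was Gbf1, a Golgi trafficking gene, with 13.8 and 66.8 CPM in LT-HSC, against 78.4 and 55.9 CPM in ST-HSC (distance 0.16), followed by Phc2, a Polycomb subunit gene, and Rangap1. Like Prdm16, these 3 genes were lowest in LT-HSC 1. Hlf lay nearest to Ddx24, Ttc35 and Tm2d1 (0.052 to 0.056), Mllt3 to Echs1, Trip6 and Riok3 (0.042 to 0.094), Nkx2-3 to Ptbp2, Zkscan17 and Flot1 (0.11 to 0.14), and Etv6 to the chromatin remodeller gene Chd2, Irf5 and Trrap (0.012 to 0.053). For Tcf15 the nearest were Cpne8, Prkce and Tnfaip2, at larger distances (0.43 to 0.83).

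Among 24 tested genes of a list of other self-renewal and reprogramming regulators, 6 were above and 2 below. Of all tested genes, 16.1% were above and 17.5% below. On this list limma called 0 at an adjusted p under 0.05, and the median log2 fold change was 0.13. Mycn, a Myc family gene used with Hlf in reprogramming of mouse blood cells, was at 214 and 135 CPM in LT-HSC, against 70.7 and 72.7 CPM in ST-HSC (log2 fold change 1.24 ± 0.35 SE, limma adjusted p = 0.716). Runx1t1, another gene of that reprogramming set, was at 57.6 and 153 CPM in LT-HSC, against 27.5 and 22.0 CPM in ST-HSC (1.89 ± 0.63 SE, limma adjusted p = 0.749). Erg, an ETS factor gene needed for HSC maintenance, had 0.70 ± 0.28 (SE), and Ldb1, the gene of a bridging factor in Gata and Lmo2 complexes, had 0.78 ± 0.32 (SE; limma adjusted p = 0.767 for both). The remaining 2 genes above were the repressor gene Gfi1 and Ndn, and Hmga2 was among those below. Meis1, Hoxa9, Myb and Lmo2, all regulators of stem and progenitor cells, had log2 fold changes between -0.05 and 0.13.

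Genes reported as targets of Mecom or Prdm16 in mice were read next. Of 6 tested, 1 lay above and 2 below, where 16.1% of all tested genes were above and 17.5% below. None of these targets was called by limma at an adjusted p under 0.05. Mfn2, a mitochondrial fusion gene reported to depend on Prdm16 in HSCs, had 17.4 CPM in LT-HSC 1 and 17.0 CPM in LT-HSC 2, against 79.0 and 44.6 CPM in ST-HSC 1 and 2 (log2 fold change -1.73 ± 0.62 SE, limma adjusted p = 0.758). Both LT-HSC libraries were low for Mfn2, and LT-HSC 1 alone was low for Prdm16. Whether Mfn2 followed Prdm16 in these libraries was not tested. Hgf, a growth factor gene, was at 19.9 and 18.3 CPM in LT-HSC, against 5.52 and 14.2 CPM in ST-HSC. Cdkn1a, which encodes the CDK inhibitor p21, stood at 0.0765 CPM in LT-HSC 1 and between 8.96 and 9.72 CPM in the other 3 libraries. The factor gene Gata2 (-0.18 ± 0.33 SE) overlapped between the groups, and Cebpa had no read in any library.

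The relatives of the 7 genes were read by family, beside shares of 16.1% above and 17.5% below over all tested genes. Of 7 tested PRDM genes, 0 lay above and 3 below (Prdm4 and Prdm15 among them), with a median log2 fold change of -0.37, and Prdm15 was at 46.6 and 8.23 CPM in LT-HSC, against 61.8 and 148 CPM in ST-HSC. Among the bZIP relatives of Hlf, Dbp had -0.12 ± 0.35 (SE), and Tef was at 139 and 14.2 CPM in LT-HSC, against 150.0 and 128 CPM in ST-HSC. Nfil3, a repressor gene acting on the same sites, was at 2.60 and 2.79 CPM in LT-HSC, against 0 and 0.337 CPM in ST-HSC. It passed the filter on low values through LT-HSC alone. Of 15 tested ETS genes, 2 lay above (Erg and Elf2) and 1 below (Gabpa). The ETS repressor gene Etv3 had 0.13 ± 0.31 (SE), and Erf was at or under 1.84 CPM in every library. Of 12 other Nkx homeobox genes listed, 10 had no read and 0 were tested. Among these Nkx genes, Nkx2-3 alone had a level above 2.52 CPM in any library, and homeobox genes of other names were not read. None of the tested relatives was called by limma at an adjusted p under 0.05.

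Partner genes were read by complex. Of 19 tested genes of the Mllt3 complexes, 3 lay above and 4 below, shares near those of all tested genes (16.1% above and 17.5% below), with 0 called by limma at an adjusted p under 0.05. Cbx8, a Polycomb gene whose product binds Mllt3, was at 0.535 and 0.433 CPM in LT-HSC, against 35.0 and 23.1 CPM in ST-HSC (log2 fold change -4.31 ± 1.02 SE, limma adjusted p = 0.716). Cbx8 passed the filter on low values through ST-HSC alone, so its place below was set by the filter. Aff3, a scaffold gene of the elongation complexes, was at 65.5 and 112 CPM in LT-HSC, against 187 and 179 CPM in ST-HSC. Its relative Aff1 was at 9.02 and 20.5 CPM in LT-HSC, against 37.7 and 40.8 CPM in ST-HSC. Their relative Aff4 lay above, at 114 and 180 CPM in LT-HSC, against 113 and 74.4 CPM in ST-HSC. Eaf2, an elongation factor partner gene, was at 108 and 127 CPM in LT-HSC, against 35.8 and 77.2 CPM in ST-HSC. Mll1 and Ccnt1, a methyltransferase and a cyclin gene of these complexes, had -0.04 and 0.06. Cdk9, a kinase gene of the list, lay above (0.56 ± 0.31 SE). Mllt1, the closest relative of Mllt3, was at 0.688 and 42.5 CPM in LT-HSC, against 8.84 and 11.4 CPM in ST-HSC. For Tcf15, 6 genes of bHLH partners and their Id inhibitors were tested, with 0 above and 2 below (Tcf12 and Id1). The general bHLH partner genes Tcf3 and Tcf4 had log2 fold changes of -0.36 ± 0.73 and 0.25 ± 0.23 (SE). Id1 was at 6.50 and 0.0619 CPM in LT-HSC, against 9.77 and 13.3 CPM in ST-HSC. The corepressor gene Ctbp1 had 0.50 ± 0.40 (SE), Ctbp2 had no read in any library, and of the 6 tested corepressor genes of Mecom and Prdm16, 0 lay above and 0 below. The deacetylase genes of that list had log2 fold changes of -0.26 (Hdac1), -0.06 (Hdac2) and -0.35 (Hdac3). Of the 5 tested corepressor genes of Etv6, 2 lay below, Ncor1 (-0.39 ± 0.26 SE) and Sin3a (-0.87 ± 0.46 SE).

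**Figure D3:**
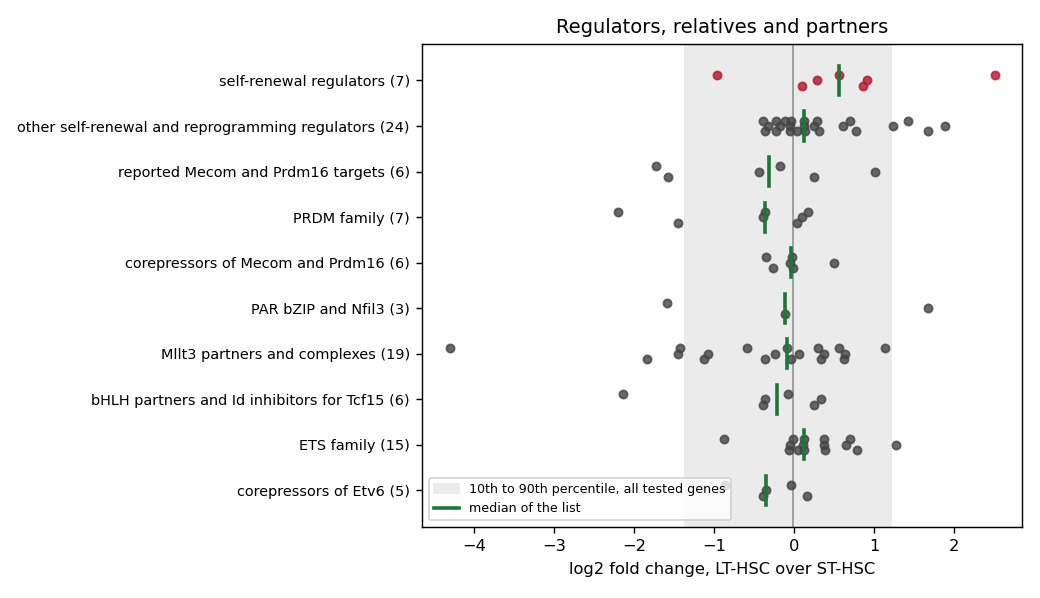
Log2 fold changes, LT-HSC over ST-HSC, of the tested genes of each list (number in parentheses), with the list median as a green bar and the 10th to 90th percentile of all 12569 tested genes (-1.36 to 1.21) in grey. The 7 regulators (red) have a median of 0.56, as do the HSC markers (0.56, not drawn), and Tcf15 (2.52) lies right of the grey band.

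Markers of the gates and of other cells were read in the same libraries. Their counts stand beside shares of 16.1% above and 17.5% below over all tested genes. A gene under 1 CPM in both LT-HSC libraries passes the filter on low values through ST-HSC alone, and then lies below in any case. This holds for Cd48, Klf1, Ermap, Aurkb, Mpo and Stab2. Recovered reads per library were about 13063748 to 16143880, and between 13275 and 14548 genes had a read, the most in LT-HSC 1. HSC markers such as Procr and Fgd5 summed to 2095 to 2219 CPM in LT-HSC and to 1309 to 1320 CPM in ST-HSC, with 6 of 9 above and 0 below. Vwf gave 304 and 380 CPM of these sums in LT-HSC, against 45.3 and 9.17 CPM in ST-HSC. Ctnnal1, Kit and Ly6a overlapped between the groups. Multipotent progenitor markers summed to 259 to 322 CPM in LT-HSC and to 672 to 854 CPM in ST-HSC, with 6 of 6 below, and proliferation markers to 780 to 842 CPM in LT-HSC and to 1637 to 2062 CPM in ST-HSC, with 7 of 11 below. Of the genes of the gates, Cd9 was at 134 and 124 CPM in LT-HSC, against 100.3 and 113 CPM in ST-HSC (0.28 ± 0.29 SE on the log2 scale). The CD150 gene Slamf1 had 113 and 138 CPM in LT-HSC, against 65.8 and 108 CPM in ST-HSC. Cd34 was read in both, with 134 and 201 CPM in LT-HSC although their gate excludes the protein, against 324 and 430 CPM in ST-HSC. Cd48 had at most 0.153 CPM in LT-HSC, against 16.4 and 38.8 CPM in ST-HSC, where the gate excludes the protein as well. The HSC marker sum was higher in LT-HSC, as were Mecom, Hlf, Mllt3, Nkx2-3 and Tcf15. The progenitor and proliferation sums went the opposite way. The part of these marker lists in the differences of those genes was not tested. Megakaryocyte markers, with Gp6 at 0, summed to 149 to 151 CPM in LT-HSC and to 212 to 316 CPM in ST-HSC (3 of 6 below). Of these sums, Itga2b, the gene of the integrin CD41, gave 2.45 and 5.01 CPM in LT-HSC, against 152 and 105 CPM in ST-HSC, and without it the sums overlapped (145.6 to 146 CPM in LT-HSC, 106 to 164 CPM in ST-HSC). Erythroid markers summed to 206 to 291 CPM in LT-HSC and to 320.1 to 354 CPM in ST-HSC (4 of 7 below, 1 above). Endothelial cells can also express Mecom, Prdm16 and Nkx2-3, and 2 of their 8 tested markers lay above and 2 below. The endothelial sum was 736 to 745 CPM in LT-HSC and 584 to 720.2 CPM in ST-HSC, most of it from Egfl7, Emcn, Tek and Tie1, which HSCs also express. The defining endothelial gene Cdh5 was at or under 2.45 CPM in LT-HSC, against 2.33 and 9.84 CPM in ST-HSC, and Plvap and Sox17 had no read. Kdr, an endothelial receptor gene, was at 30.3 and 14.9 CPM in LT-HSC, against 10.4 and 8.49 CPM in ST-HSC, and Stab2, a scavenger receptor gene of sinusoids, had no read in LT-HSC, against 28.3 and 15.4 CPM in ST-HSC. Granulocyte-monocyte markers summed to 451 to 452 CPM in LT-HSC and to 378 to 484 CPM in ST-HSC (Ctsg at 0). These sums overlapped, and of 7 tested genes 0 lay above and 1 below. Mpo was the gene below, at 0 and 0.0619 CPM in LT-HSC, against 10.04 and 21.3 CPM in ST-HSC (limma adjusted p = 0.716). Prtn3 gave the most CPM of the list in each library, at 289 and 217 CPM in LT-HSC, against 226 and 216 CPM in ST-HSC. Lymphoid sums overlapped too (0 to 10.2 CPM in LT-HSC, 0.266 to 12.9 CPM in ST-HSC, Dntt, Il7r, Cd3e and Pax5 at 0). So did stromal sums (0.495 to 35.4 CPM in LT-HSC, 0.731 to 13.2 CPM in ST-HSC, Lepr at 0).

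**Figure D4:**
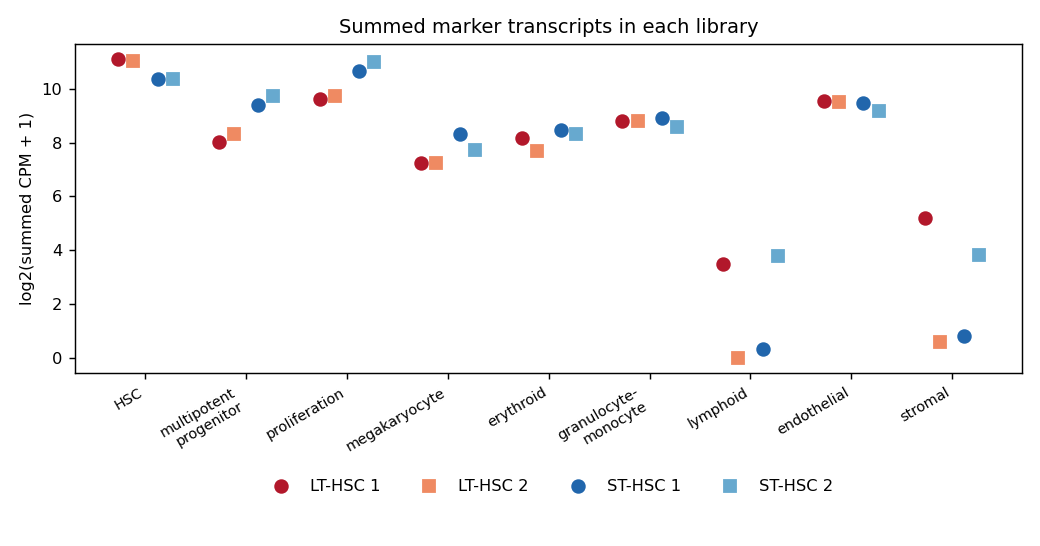
Summed CPM of each marker list per library, as log2(summed CPM + 1) on the vertical axis, with LT-HSC left of ST-HSC. HSC markers are higher in both LT-HSC libraries, progenitor, proliferation, megakaryocyte and erythroid markers are lower in both, and the lymphoid and stromal sums are low and differ between libraries of the same group.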

How the data were processed

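RNA from 2000 sorted cells per library was amplified with the SMARTer kit and sequenced, per the labels' protocols. TopHat and the mm9 build are named in the submitters' processing notes; the counter and annotation are not given there. Each deposited file holds log2 values, whose low steps show that the authors took log2 of reads plus 1, scaled by the library total to CPM, (or set genes without a read to 1 read, which gives the same steps). Of the values up to 100 reads, 100% came out within 0.1 of a whole read; higher read numbers are rounded by the 3 decimals deposited. CPM were computed by removing the added read. Genes reaching 1 CPM in 2 or more libraries were tested on log2(CPM + 1) with limma 3.58.1 (trend, robust; R 4.3.3) and Benjamini-Hochberg adjustment over 12569 genes; because the values are logs, this took the place of a negative binomial count test. The test was tested on simulated reads with the same relative spread for every gene. That checks the code and does not show what the test could find in these libraries. A floor of 3 reads equals 0.186 to 0.229 CPM and covers counting error only. The members, lists and tests were chosen with earlier results of these data known; named list genes are up to 4 of each list with the smallest p, plus the nearest relatives, and a few more were chosen after their values were seen. Some list genes are counted but not reported here by name. Sequences are RefSeq's (GRCm38.p6) and lengths GENCODE's (M21), matched by symbol.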

Additional observations from a re-analysis of the deposited data

How the results depend on the processing

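Across 14 alternatives, 97 log2 fold changes of the 7 genes were computed (Tcf15 did not pass the filter of at least 5 CPM), of which 94 kept their direction and 0 passed the threshold. The 3 that reversed were Prdm16 without LT-HSC 1 (0.12) and Etv6 without LT-HSC 2 (-0.13) and without ST-HSC 2 (-0.22); the cause was not tested. Leaving out a library gave ranges of 0.67 to 1.06 for Mecom, -2.05 to 0.12 for Prdm16, 0.20 to 0.38 for Hlf, 0.47 to 0.65 for Mllt3, 1.79 to 3.24 for Tcf15, 0.59 to 1.23 for Nkx2-3 and -0.22 to 0.41 for Etv6. The number of genes past the adjusted threshold was 0 in every alternative, limma-voom included (279 higher and 306 lower at an unadjusted p under 0.05). Without single libraries, 5 to 6 of the 7 genes lay above, but with 3 libraries 28.9% to 37.5% of all tested genes do. TMM and median-of-ratios scaling kept the count at 5, with 17.1% and 17.2% of all genes above. Whether replicate numbers pair the libraries could not be decided from the values. The deviations from the group means correlated at 0.052 between libraries numbered 1, which does not exclude pairing. With the replicate block, 0 genes passed and 5 of the 7 lay above. The log2 fold change of Mecom with this block was 0.87 ± 0.15 (SE), against an SE of 0.21 without it, and did not pass. A quasi-likelihood count test was planned only for files of raw counts and was not run, because the files hold log2 values. Limma-voom on the recovered reads was 1 of the 14 alternatives. Depth limits Tcf15 (0 to 165 reads per library).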
